A study of Caenorhabditis elegans with 16 samples.

Results

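The nuclear pore and nuclear transport genes were taken as the protein-coding genes whose deposited name begins with npp-, ima-, imb-, xpo- or ran-. This gave 39 genes, of 46536 genes in the deposited tables and 20112 that are protein-coding. They comprised 25 nucleoporin genes named npp, 3 importin alpha genes, 3 importin beta genes, 3 exportin genes and 5 genes of the Ran cycle. Their RNA was read from 16 sequencing libraries of Caenorhabditis elegans germline tumors, dissected in a time course of auxin treatment. Each of 4 groups had 4 libraries, and the groups were controls at 0 h and animals exposed to auxin at 1 mM during 2 h, 4 h or 48 h. The series calls the libraries of a group biological replicates, and how each was collected was not stated.

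All groups, controls included, were 1 day old adults of the Bristol strain with the same genotype. The labels give growth of 48 h at 25 °C for every group, a time as long as the longest auxin exposure. They carried gld-2(q497) and gld-1(q485), which remove regulators of meiotic entry, and glp-1(ar202), an allele of the germline Notch receptor. They also carried lag-1(oz536oz537), an altered gene for the DNA-binding factor of the Notch pathway, and the transgene ieSi64, in which the gld-1 promoter drives tir1 fused to mRuby. TIR1 is a plant protein that, with auxin, directs breakdown of proteins that carry a matching degron, so any such breakdown depends on where the gld-1 promoter is active. Auxin-treated animals with an unaltered lag-1 gene were not analysed here, so an effect of auxin itself cannot be told apart from an effect of LAG-1 loss.

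The nuclear pore complex is the channel through which proteins and RNA pass between nucleus and cytoplasm. It is built of nucleoporins arranged as outer and inner rings, a central channel of disordered repeats, cytoplasmic filaments, a nuclear basket and proteins that anchor it in the membrane. Importins and exportins carry cargo through the channel, and the Ran GTPase, loaded with GTP in the nucleus by its exchange factor and discharged in the cytoplasm by its activating protein, sets the direction of travel. Germ cells also use these proteins in spindle assembly and in rebuilding the envelope after division.

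Levels are CPM, the reads of a gene scaled by the total of its library, and came in 2 tables. The first table held controls 1 to 4, 2 h libraries 1 and 2, and 48 h libraries 1 to 4, and the second held 2 h libraries 3 and 4 and 4 h libraries 1 to 4. Library totals were 17760706 to 33888940 reads. The share of ribosomal RNA was 53.3% in control 1, 51.7% in control 3 and 44.9% in 48 h library 1, against 32.3% to 36.2% in the other libraries of the first table and 37.8% to 44.7% in the second. Summed levels of 15 germ cell markers were 2016 to 4231 CPM, all 15 were present in each group, and markers of sperm summed to 0.772 to 3.0 CPM. The Notch pathway activates lst-1 and sygl-1 in these cells. In the first table their summed level was 43.7 to 119.4 CPM in controls. There it was 18.8 to 21.5 CPM at 2 h and 14.8 to 22.3 CPM at 48 h. In the second table, without controls, it was 13.9 to 15.6 CPM at 2 h, with a median of 14.9 CPM at 4 h.

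Each of the 39 genes reached 1 CPM in all 16 libraries, so all 39 were tested. In controls their median level was 53.0 CPM per kilobase of exonic length, against 18.3 for the 7159 tested protein-coding genes. Their median percentile among those genes was 83.4, with 37 above the 50th and 8 above the 90th. They were also long, with a median exonic length of 2614 nt against 1514 nt, and a range from 635 nt in ran-4 to 6109 nt in npp-21. In the Ensembl annotation of WBcel235, which was not stated to be the build of the study, 13 lay on chromosome I, 8 on II, 8 on III, 7 on IV, 3 on V and 0 on X. The X chromosome held 319 of the 7159 tested protein-coding genes.

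**Figure D1:**
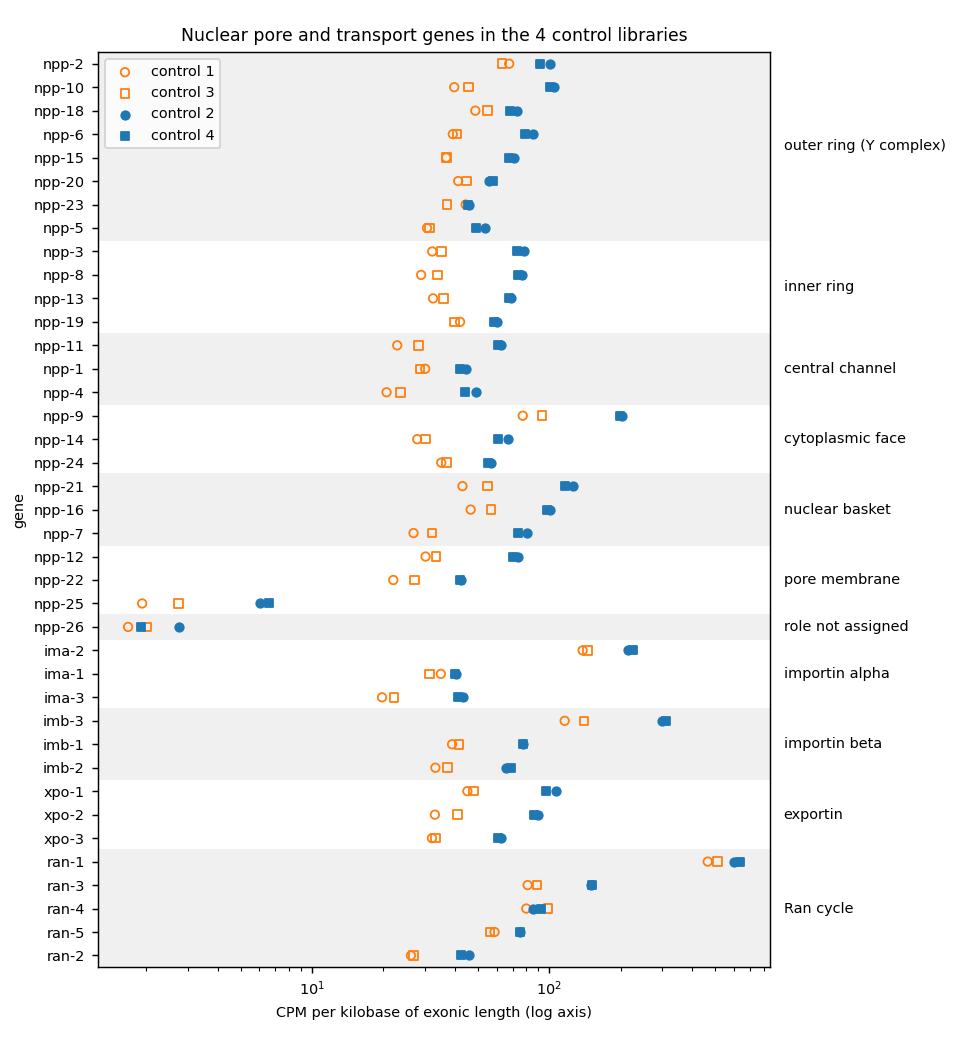
Level of each of the 39 genes in the 4 control libraries, in CPM per kilobase of exonic length on a log axis, grouped by role; each point is 1 library. ran-1 is highest, npp-25 and npp-26 stand far below the rest, and for nearly all genes controls 1 and 3 (open) lie below controls 2 and 4 (filled).

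Among nucleoporins, the 8 genes of the outer ring or Y complex, the scaffold that coats the membrane, spanned 41.1 (npp-5) to 80.8 (npp-2) CPM per kilobase in controls. In npp-2, the Nup85 homolog, the 4 controls spanned 121 to 191 CPM, with controls 1 and 3 lowest. The 4 inner ring genes were closely spaced, from 50.2 (npp-19) to 54.6 (npp-3) CPM per kilobase, and npp-3, the Nup205 homolog, had 175, 426, 191 and 397 CPM. The central channel genes npp-1, npp-4 and npp-11, whose products bear the repeats that cargo carriers bind, lay lower, at 34.3 to 43.6 CPM per kilobase. Of these npp-11, the Nup62 homolog, was highest, with controls of 59.3, 162, 72.8 and 159 CPM.

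The highest nucleoporin gene per kilobase was npp-9, which encodes the Nup358 homolog of the cytoplasmic filaments, at 143 ± 67.0 (SD, n = 4) CPM per kilobase, with controls of 235, 616, 283 and 605 CPM. On the nuclear basket npp-21, the Tpr homolog, reached 85.2 ± 42.4 CPM per kilobase (SD, n = 4) and 263, 772, 335 and 713 CPM. Membrane nucleoporins differed widely among themselves. npp-12, the gp210 homolog, stood at 51.8 CPM per kilobase (178, 437, 198 and 415 CPM), while npp-25, the TMEM33 homolog, stood at 4.31. The only lower gene was npp-26, to which no role was assigned here, at 2.09 CPM per kilobase.

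Carrier genes were led by imb-3, an importin of the RanBP5 type that carries ribosomal proteins and histones, and by ima-2, an importin alpha that joins cargo with a classical import signal to importin beta. Their control levels were 216 ± 102 and 181 ± 45.3 CPM per kilobase (SD, n = 4), which did not differ beyond their spread. The other importin alpha genes, ima-1 and ima-3, were at 36.6 and 31.6 CPM per kilobase. The highest exportin gene was xpo-1, whose CRM1-type product exports proteins with leucine-rich signals, at 74.3 ± 32.3 CPM per kilobase (SD, n = 4). In the Ran cycle, ran-1, the Ran GTPase gene, was the highest of all 39, at 552 ± 77.9 CPM per kilobase (SD, n = 4) and 446, 574, 490 and 609 CPM. Its lowest control, 465 CPM per kilobase, was above the highest control of imb-3, 310 CPM per kilobase. ran-3, the exchange factor RCC1, and ran-4, the NTF2 homolog that brings Ran back into the nucleus, were at 118 and 89.0 CPM per kilobase, and the activating protein gene ran-2 was at 35.4.

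Annotated exons of 15 of the 39 genes overlap another gene, in 11 cases on the opposite strand, and no source used here says whether the counting used strand. Reads of such pairs may not be told apart. On the opposite strand this touches ran-1 (with rib-2), npp-9 (with clpf-1), imb-1, imb-2, ima-3, npp-12, npp-16, xpo-1, xpo-3 and npp-26. On the same strand it touches npp-3, npp-6, npp-8 and npp-10, and npp-24 has overlaps on both strands. ran-2, ran-3, ran-4, ima-1, ima-2, imb-3, npp-20 and npp-23 have no such overlap.

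Levels of these genes varied widely between libraries of the same group. Their summed level was 4977, 10460, 5518 and 10170 CPM in controls 1 to 4, 8891 and 10370 CPM in 2 h libraries 1 and 2, and 6671, 10010, 10040 and 10300 CPM in 48 h libraries 1 to 4. Controls 1 and 3 and 48 h library 1, the libraries with the highest ribosomal share in that table, were the 3 lowest. The mean of controls 1 and 3 over that of controls 2 and 4 had a median of 0.523 over the 39 genes, with 38 below 1, against 0.691 over all tested protein-coding genes. It ran from 0.369 in npp-25 to 1.01 in ran-4.

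This ratio fell with exonic length across the 39 genes, which share the libraries and so are not independent replicates (Pearson r with log2 length −0.80, Spearman rho −0.75). For 48 h library 1 over 48 h libraries 2 to 4 the median ratio was 0.708, with r −0.64 and rho −0.61. For 4 h libraries 1 and 2 over 3 and 4 it was 0.892, with r −0.11 and rho −0.13. Long genes such as npp-21 and imb-3 thus differed widely between control libraries, and the short gene ran-4 hardly at all, although the lowest ratio belonged to npp-25, at 2094 nt. The ribosomal share moved with these ratios, and its part in them was not tested.

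**Figure D2:**
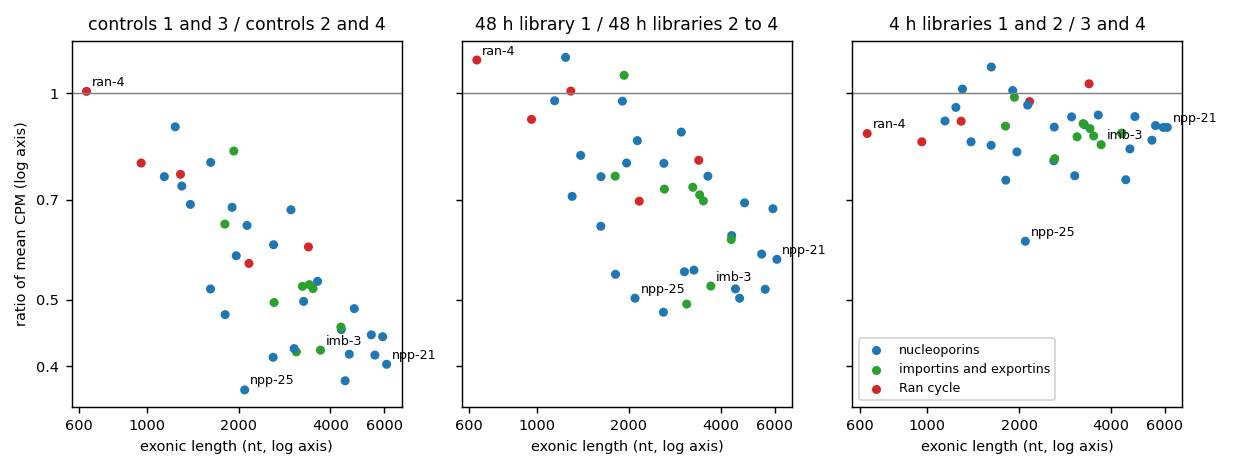
Ratio of mean CPM between libraries of the same group against exonic length, both on log axes, for 39 genes (points, coloured by class). In controls and at 48 h, long genes such as npp-21 and imb-3 lie far below a ratio of 1 while ran-4, at 635 nt, lies at or above it; the 4 h libraries show a weaker slope.

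Values are therefore given on the deposited scale and, beside it, after centring each library on its median and removing its trend with exonic length. On either scale limma was run on log2(CPM + 1) as a 2-sided test, p-values were adjusted by Benjamini-Hochberg over all genes tested, and the threshold was an adjusted p of 0.05. A fold change is thus a difference of log2(CPM + 1), followed by its standard error. Comparisons were made within a table, and the 3 comparisons of the first table share libraries. Controls and 4 h libraries never share a table and were not compared.

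The comparison of 2 h with control asks which of these genes had changed shortly after auxin was given. No nuclear pore or transport gene passed the test, 0 of 39 against 0% of all 7684 genes tested. At an unadjusted p under 0.05 the count was 0 of the 39 genes, against 429 of all genes, and edgeR and DESeq2 on recovered reads also called 0 of the 39, against 0% and 0.377% of all genes. The median log2 fold change was 0.37 over the 39 genes and 0.24 over all genes, and without control 1 these were 0.20 and 0.15. After centring these medians were 0.07 and −0.05, and with the length trend also removed −0.05 and −0.02.

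In 3 genes both 2 h libraries lay above all 4 controls (ima-1, npp-20 and npp-23), a pattern seen in 17.8% of all genes. The outer ring gene npp-20, the Sec13 homolog, had controls of 47.2, 63.8, 51.2 and 66.3 CPM and 2 h values of 69.8 and 68.9 CPM. Its log2 fold change was 0.29 ± 0.16 (limma, adjusted p = 0.520), and −0.0040 after centring. For the importin alpha gene ima-1 the controls were 67.3, 78.0, 60.4 and 76.9 CPM and the 2 h libraries 78.0 and 86.1 CPM, so the groups barely separated. That difference was 0.22 ± 0.15 (limma, adjusted p = 0.520) and turned to −0.08 after centring. npp-26 was low throughout, at 2.72, 4.46, 3.27 and 3.09 CPM in controls and 4.37 and 4.17 CPM at 2 h, and these groups overlapped (0.28 ± 0.16, limma adjusted p = 0.520).

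The width of the intervals sets what could be seen. On the deposited scale the 95% interval of a gene at 2 h reached a median of 0.67 log2 units to either side. With the length trend removed it reached 0.17, and the intervals of all 39 genes lay between −0.54 and 0.60. Differences of small size at 2 h were thus not detectable in these 2 libraries.

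The comparison of 48 h with control covers the longest treatment. On the deposited scale 0 of 39 genes passed the test, while 7.34% of all genes rose and 2.71% fell. At an unadjusted p under 0.05 there were 3 of the 39, namely ran-3, ran-4 and npp-23, against 2208 of 7684 genes. On recovered reads edgeR called 0 of the 39, against 11.6% of all genes, and DESeq2 called 3 (ran-3 higher, ran-4 and npp-24 lower), against 16.3%. Scaling to protein-coding reads called ran-3 alone, against 13.2% of all genes. Of the 39 log2 fold changes 38 were positive, with a median of 0.27 against 0.24 for all genes. That median was 0.15 without control 1, 0.45 without control 2, 0.41 without control 4 and 0.41 without 48 h library 1. Without controls 1 and 3 together it was −0.15, with 7 positive and 32 negative, against 0.0098 for all genes. Centring moved the median of all genes to −0.04 and that of the 39 to −0.01, with 19 positive and 20 negative.

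The exchange factor gene ran-3 had controls of 175, 324, 192 and 326 CPM, 2 h values of 311 and 345 CPM, and 48 h values of 283, 410, 388 and 422 CPM. The groups overlapped only through 48 h library 1. The log2 fold change against control was 0.60 ± 0.23 (limma, adjusted p = 0.125). With the length trend removed ran-3 rose by 0.26 ± 0.056 (limma, adjusted p = 0.00929), and it rose by 0.32 ± 0.071 (adjusted p = 0.00544) without controls 1 and 3 and 48 h library 1. Over 25 alternatives it was positive in all 25 and past the threshold in 7.

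The Ran importer gene ran-4 moved the other way. Controls were 50.8, 54.2, 62.7 and 58.5 CPM, 2 h libraries 59.8 and 51.8 CPM, and 48 h libraries 50.7, 43.8, 49.4 and 42.8 CPM. All 48 h values were below all controls, narrowly in the case of library 1, as in 3.67% of all genes. On the deposited scale the difference was −0.27 ± 0.12 (limma, adjusted p = 0.162). With the length trend removed ran-4 fell by 0.36 ± 0.056 (limma, adjusted p = 0.00169), and it was negative in all 25 alternatives and past the threshold in 5.

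Nonoverlapping higher values at 48 h were seen in ima-1, npp-20 and npp-23, 3 of 39 against 14.9% of all genes. npp-23, the Nup43 homolog of the outer ring, had 55.1, 56.8, 46.0 and 56.3 CPM in controls and 70.6, 61.4, 66.0 and 60.1 CPM at 48 h. That difference was 0.27 ± 0.11 (limma, adjusted p = 0.157), and it turned to −0.01 after centring and was 0.04 with the length trend removed.

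After length correction, 8 of 39 genes passed the test at 48 h, a share close to the 19.2% of all genes called on that scale. ran-3 was the 1 that rose, against 7.9% of all genes, and 7 fell, against 11.3%. By role, all 9 importin and exportin genes had negative fold changes and 5 of them fell, the 25 nucleoporin genes were split into 15 positive and 10 negative with 1 that fell, and of the 5 Ran cycle genes 1 rose and 1 fell. On the deposited scale the 9 importin and exportin genes and the 25 nucleoporin genes all had positive fold changes. With centring alone all 9 importin and exportin genes were already negative, at −0.26 to −0.02, with 0 called. The nucleoporin genes were then 17 positive and 8 negative. The sign for the carriers thus depended on the scale, and it turned before the length trend was removed. The rule given with the processing named ran-3, ran-4 and npp-23 for this comparison. It named imb-3, xpo-1 and ima-2 for their level in controls, and npp-24 for 48 h against 2 h. That those genes fell on the length-corrected scale was singled out after the values were seen. The other genes of the next paragraphs, imb-1 and imb-2 among them, were mostly named in the same way.

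All 3 importin beta genes fell on the length-corrected scale. imb-3 had controls of 431, 1104, 521 and 1149 CPM and 48 h values of 457, 894, 849 and 875 CPM, and it fell by 0.38 ± 0.089 (limma, adjusted p = 0.0133). Controls 1 and 3 and 48 h library 1 were less than the other libraries by a wide margin, and on the deposited scale the difference was 0.02 ± 0.35. Without those 3 libraries the 48 h values lay below both remaining controls, 1104 and 1149 CPM, and imb-3 fell by 0.37 ± 0.091 with no length correction (limma, adjusted p = 0.00991). imb-1, the importin beta that pairs with importin alpha, and imb-2, the transportin homolog, fell by 0.22 ± 0.051 and 0.23 ± 0.050 with the length trend removed (limma, adjusted p = 0.0131 and 0.00991). Their deposited-scale differences, 0.18 ± 0.25 and 0.16 ± 0.25, had the opposite sign.

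The remaining genes that fell on the length-corrected scale were npp-24, xpo-1 and ima-2. npp-24, the Nup88 homolog at the cytoplasmic face, fell by 0.27 ± 0.056 (limma, adjusted p = 0.00746), with 74.7, 121, 78.5 and 118 CPM in controls and 89.6, 104, 103 and 107 CPM at 48 h. xpo-1 fell by 0.18 ± 0.048 (limma, adjusted p = 0.0235) and had controls of 196, 464, 208 and 420 CPM and 48 h values of 243, 390, 398 and 403 CPM. ima-2 fell by 0.18 ± 0.054 (limma, adjusted p = 0.0436), with controls of 249, 386, 261 and 406 CPM and 48 h values of 284, 382, 375 and 368 CPM. In each of the 3 genes the deposited groups overlapped and the deposited difference was positive, at 0.08, 0.23 and 0.14 in that order.

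**Figure D3:**
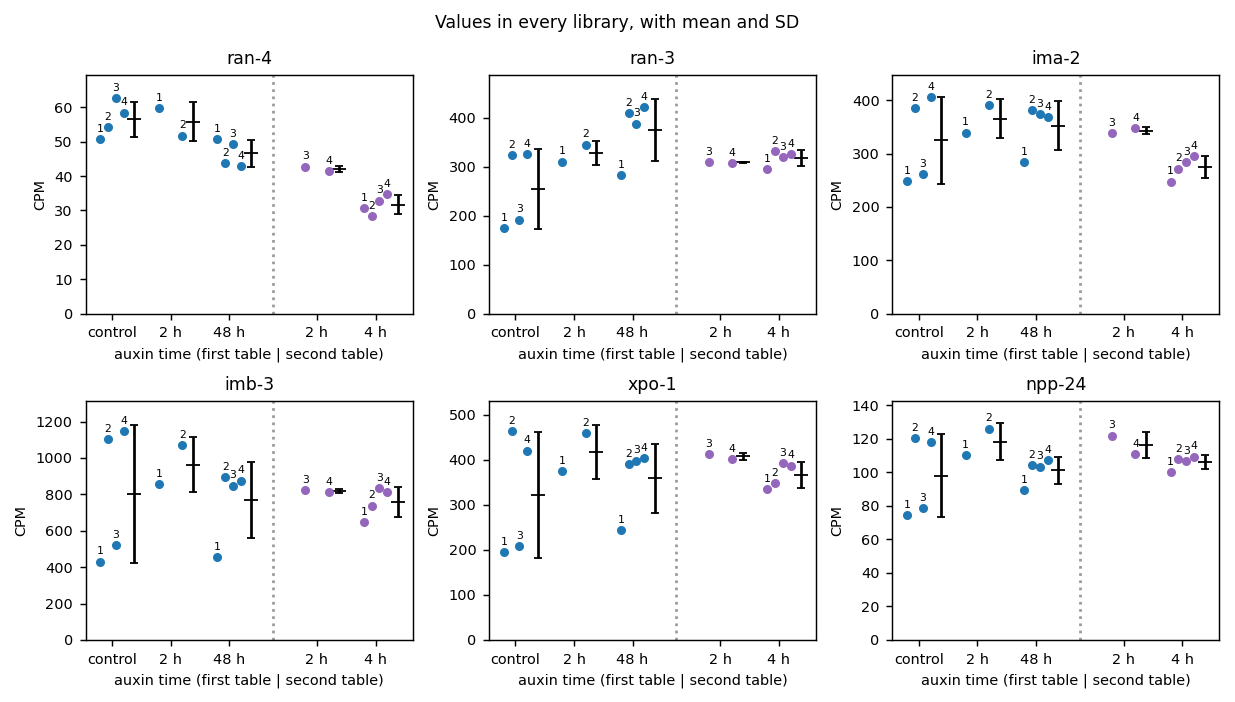
CPM of 6 genes in every library (points, numbered by replicate) with the mean and SD of each group (bars), first table to the left of the dotted line and second to the right. ran-4 is lower at 48 h than in all controls and lower at 4 h than in both 2 h libraries of its table, while in the other genes controls 1 and 3 and 48 h library 1 stand below the rest of their groups.

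Leaving out controls 1 and 3 and 48 h library 1 left 2 controls against 3 libraries at 48 h, and called 3 of 39 genes with no length correction (ran-3 higher, imb-3 and ran-4 lower), against 23.9% of all genes. On the same libraries edgeR called 5 (with imb-2 and npp-24 also lower), against 24.8%. Together with the length correction, a setting chosen after seeing the data, it called 16 of 39, against 34.3% of all genes. There 3 rose (npp-9, npp-13 and ran-3), against 1265 of 7684 genes, and 13 fell, against 1369 of 7684. Those 13 included 8 of the 9 importin and exportin genes, all except ima-1. The share of the 39 genes called was thus below that of all genes where libraries were left out without the correction. With both it was a little above.

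After the length trend was removed, some spread between libraries remained. Control 1 and 48 h library 1 still stood apart in several genes, among them npp-1 and ima-1 (higher) and npp-4 and npp-11 (lower).

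**Figure D4:**
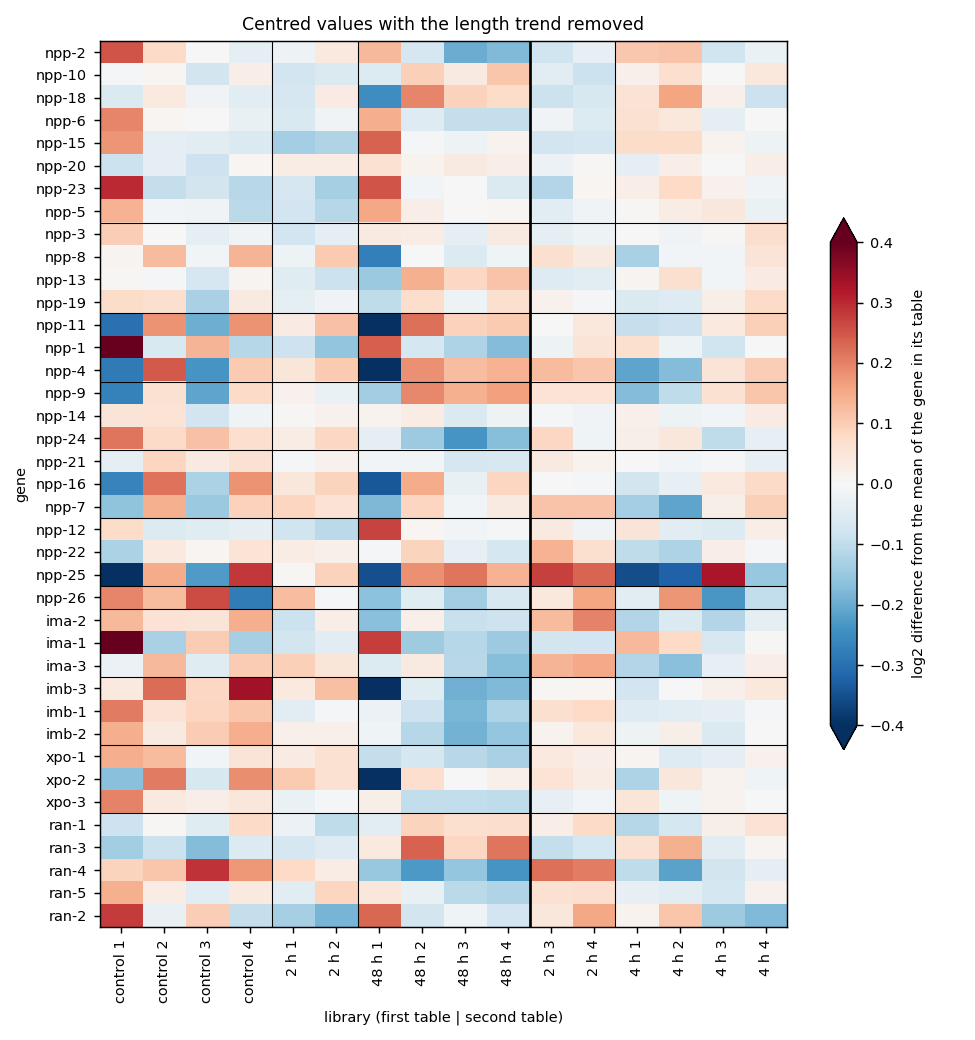
Log2 difference of each gene from its mean in its table, with libraries centred and the length trend removed (colour scale −0.4 to 0.4), genes in rows by role and libraries in columns. Importin and exportin rows are mostly red in controls and blue at 48 h, ran-3 shows the reverse, and control 1 and 48 h library 1 hold the strongest single cells.

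Markers of other cells were present at low levels and some moved with time. Of 10 somatic gonad markers 5 averaged 1 CPM or more, and their sum was 65.3 to 93.9 CPM in controls and 103 to 118 CPM at 48 h, without overlap. Higher values without overlap at 48 h were seen in 14.9% of all genes. On the deposited scale 2 of the 5 tested rose (inx-8 and inx-9), against 7.34% of all genes. After centring only lin-3 of the 5 rose, against 287 of 7684 genes. Of 8 body muscle markers 6 averaged 1 CPM or more, and their sum was 42.2 to 76.8 CPM in controls and 51.3 to 112 CPM at 48 h. Sums for intestine were 16.7 to 34.1 and 20.4 to 41.1 CPM, for neurons 25.2 to 42.0 and 24.7 to 50.4 CPM, and for epidermis and cuticle 29.4 to 51.5 and 47.6 to 67.8 CPM. The highest neuron sum at 48 h was in library 2, where unc-13 was at 13.6 CPM, against 0.619 to 1.16 CPM in the other 48 h libraries. On the deposited scale mup-2 (1 of 6 tested muscle markers), lbp-6 (1 of 4 for intestine) and nhr-23 (1 of 4 for epidermis) also rose. him-3 rose (1 of 15 germ cell markers) and unc-31 fell (1 of 6 for neurons), against 7.34% and 2.71% of all genes. After centring nhr-23 and htp-3, a germ cell marker, rose. unc-31 fell there, against 549 of 7684 genes. In controls dpy-7, msp-142 and gsp-3 were at 0 in all 4 libraries, and at 48 h unc-17, msp-142, msp-31 and gsp-3 were. Their part in the differences at 48 h was not tested. In dissected tissue a smaller number of cells and less RNA per cell cannot be told apart.

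Against the 2 h libraries of the same table, the 48 h libraries showed 0 of 39 genes past the test, against 2.85% of all genes, with 0 at an unadjusted p under 0.05, against 914 of 7684 genes. edgeR and DESeq2 also called 0 of the 39, against 4.93% and 7.47% of all genes. The median log2 fold change was −0.08, and −0.02 over all genes, but its sign rested on single libraries. It was 0.051 without 48 h library 1, with 28 of 39 positive, 0.012 without 2 h library 2 and −0.16 without 2 h library 1. All 48 h values were below both 2 h values in ran-4, npp-24 and npp-26, against 14.8% of all genes, and above them in npp-23, against 12.5%. ran-4 differed by −0.25 ± 0.14 (limma, adjusted p = 0.633), npp-24 by −0.22 ± 0.22 (adjusted p = 0.989) and npp-26 by −0.17 ± 0.16 (adjusted p = 0.982). In npp-24 the 2 h libraries were at 110 and 126 CPM, and in npp-26 the 48 h libraries were at 2.98, 3.93, 3.90 and 4.01 CPM. Without controls 1 and 3 and 48 h library 1, 4 genes passed (npp-9, npp-13 and ran-3 rose and ran-4 fell), against 20.4% of all genes. The same libraries gave 5 by edgeR, with npp-24 also lower, against 21.9%, and 12 when the length trend was removed, against 30.2%.

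The comparison of 4 h with 2 h, made in the second table on other libraries than those above, asks what changed between these times. The Ran importer gene ran-4 and the importin alpha gene ima-2 had the smallest p of the 39, and both values were lower at 4 h. On the deposited scale 0 of 39 genes passed the test, against 0.384% of all genes, and 9 of the 39 had an unadjusted p under 0.05, against 1133 of 7301 genes. edgeR called 2 (ima-2 and ran-4, both lower), against 3.19% of all genes, and DESeq2 called 3 (with ima-3), against 4.63%. The median log2 fold change was −0.13 over the 39 genes and −0.07 over all genes, and 33 were negative. After centring 25 were negative, with the length trend removed 24, and without 4 h libraries 1 and 2 21. Without 4 h library 1 alone the medians were −0.083 and −0.041. In 17 genes all 4 h values lay below both 2 h values, against 24% of all genes, and in 0 genes above them, against 6.16%.

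ran-4 was at 42.7 and 41.3 CPM in 2 h libraries 3 and 4 and at 30.7, 28.3, 32.9 and 34.7 CPM in the 4 h libraries. No 4 h value reached a 2 h value. The difference was −0.40 ± 0.091 (limma, adjusted p = 0.115). After centring ran-4 fell by 0.32 ± 0.067 (limma, adjusted p = 0.0358), and with the length trend removed it fell by 0.32 ± 0.062 (adjusted p = 0.0191).

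ima-2 was at 339 and 348 CPM at 2 h and at 248, 272, 284 and 296 CPM at 4 h, again without overlap. Its difference was −0.32 ± 0.078 (limma, adjusted p = 0.129). It fell by 0.24 ± 0.044 after centring (limma, adjusted p = 0.0198) and by 0.24 ± 0.041 with the length trend removed (adjusted p = 0.0101). These 2 were the only genes of the 39 that passed after centring, where 2.26% of all genes were called and 1% fell. The same held when values were scaled to protein-coding reads, where 2.27% of all genes were called, and on the length-corrected scale, where 3.74% were called and 1.55% fell.

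ran-2, the Ran GTPase-activating protein gene, was at 118 and 125 CPM at 2 h and at 96.5, 112, 104 and 97.3 CPM at 4 h. The groups did not overlap, and the difference was −0.25 ± 0.077 (limma, adjusted p = 0.192). ima-3, an importin alpha that worm oogenesis needs, had 71.0 and 70.1 CPM at 2 h and 50.1, 51.8, 63.1 and 63.7 CPM at 4 h (−0.31 ± 0.10, limma adjusted p = 0.218). It is named after its values were seen. The 2 lower values of ima-3 belong to 4 h libraries 1 and 2, in which the ribosomal share was 44.7% and 41.6%, against 37.8% and 38.6% in 4 h libraries 3 and 4.

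Without 4 h libraries 1 and 2, a setting chosen after seeing the data, ran-4 fell by 0.31 ± 0.060 (limma, adjusted p = 0.0231), ima-2 by 0.24 ± 0.038 (adjusted p = 0.00878) and ran-2 by 0.27 ± 0.049 (adjusted p = 0.0168). That left 2 libraries against 2, and 3.36% of all genes were called. The same 3 genes passed when the length trend was removed as well, against 6.88% of all genes. Without 4 h library 3 alone, ima-2, npp-25 and ran-4 passed, as did 250 of all 7301 genes, against 28 with that library. npp-25 was at 8.10 and 7.64 CPM at 2 h and 4.05, 4.47, 8.39 and 5.60 CPM at 4 h, so that library 3 was its only 4 h value above a 2 h value.

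By role on the length-corrected scale, the 8 outer ring genes at 4 h were all positive, at 0.01 to 0.11, and the 3 membrane nucleoporin genes all negative, at −0.38 to −0.02, with none past the test. On the deposited scale 4 of the 8 outer ring genes were negative, so that pattern depended on the scale. The 95% interval of a gene reached a median of 0.18 log2 units to either side on the deposited scale and 0.11 with the length trend removed.

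**Figure D5:**
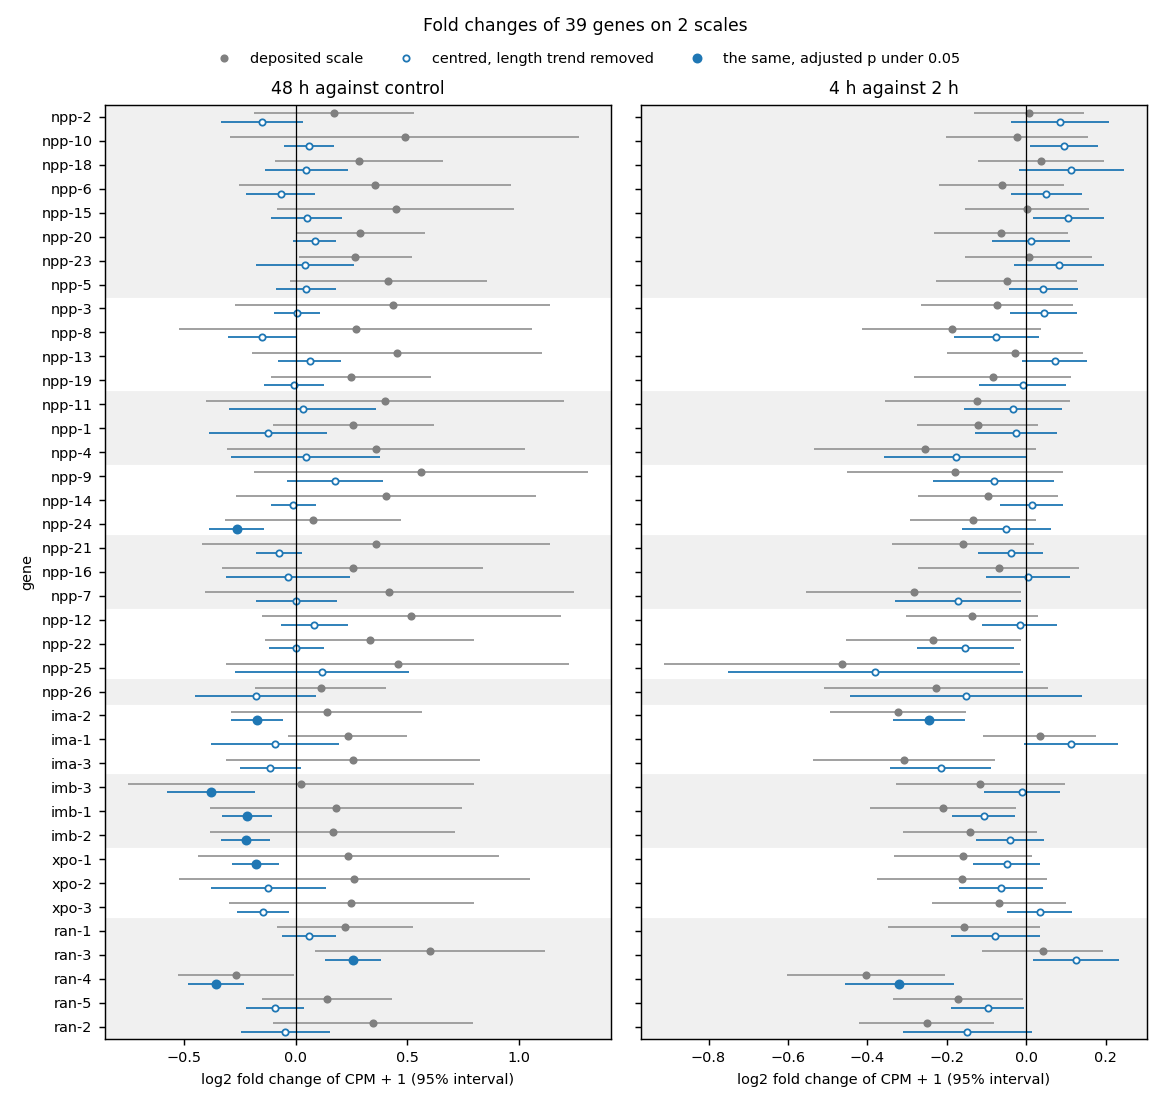
Log2 fold change (points) with 95% interval (lines) of the 39 genes at 48 h against control and at 4 h against 2 h, on the deposited scale (grey) and with each library centred and its length trend removed (blue; filled where the adjusted p is under 0.05). On the second scale 8 genes are filled at 48 h, with ran-3 to the right and 7 to the left, and ima-2 and ran-4 are filled at 4 h.

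The same 2 genes can be followed through the time points. At 2 h against control ran-4 differed by −0.02 on the deposited scale, the lowest of the 39 genes, with overlapping groups. After centring that difference was −0.31. With the length trend removed, the 2 h libraries lay at 0.080 and 0.029 from the mean of the gene. Controls 1 to 4 then lay at 0.088, 0.111, 0.289 and 0.174. On none of these scales was ran-4 called at 2 h. ran-4 was lower at 48 h than control in the first table and lower at 4 h than 2 h in the second, and those 2 comparisons share no library. Neither difference passed on the deposited scale, and both passed with the length trend removed. With centring alone the difference at 48 h was −0.55 and did not pass, while the difference at 4 h passed. The gene was named for its small p in these same data. ima-2 overlapped between groups at 2 h and 48 h in the first table and was separated at 4 h in the second. At 48 h it passed as lower only where the length trend was removed.

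Other genes of nuclear transport and the nuclear envelope were followed as 3 lists. For 17 tested genes of mRNA export, the list median at 48 h on the deposited scale was 0.33, against 0.24 for all genes. Of the 17, 1 rose and 0 fell, against 7.34% and 2.71% of all genes. This was aly-1, which encodes an adaptor for RNA export, at 0.939, 1.25, 1.13 and 1.96 CPM in controls and 1.97, 2.04, 2.57 and 2.31 CPM at 48 h (0.49 ± 0.14, limma adjusted p = 0.0480). After centring that difference was 0.21 ± 0.11 (adjusted p = 0.294). thoc-7, a subunit of the THO complex, differed by 0.33 ± 0.11 (adjusted p = 0.0901), and with the length trend removed it rose by 0.21 ± 0.045 (adjusted p = 0.00800).

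On the length-corrected scale 2 genes of mRNA export rose at 48 h (thoc-7 and dss-1) and 2 fell (aly-2 and ncbp-1), against 7.9% and 11.3% of all genes. At 4 h none of the 17 passed on either scale, and the smallest p belonged to aly-2 (−0.24 ± 0.069, limma adjusted p = 0.175) and to the cap-binding gene ncbp-1 (−0.24 ± 0.081, adjusted p = 0.219).

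Of 17 tested genes of the nuclear envelope and lamina, 0 passed at 48 h on the deposited scale, where 7.34% of all genes rose and 2.71% fell. The list median was 0.31, against 0.24 for all genes. There lpin-1, a lipin, had 0.65 ± 0.27 (limma, adjusted p = 0.150) and anc-1, which anchors nuclei, 0.59 ± 0.28 (adjusted p = 0.191). After centring 1 of the 17 fell (akir-1), against 549 of 7684 genes. After length correction 1 of the 17 rose (lpin-1) and 2 fell (lmn-1 and akir-1), again against 7.9% and 11.3% of all genes. lmn-1, the only lamin gene of the worm, had 308 and 315 CPM at 2 h and 235, 237, 273 and 269 CPM at 4 h. Its difference at 4 h was −0.30 ± 0.080 (limma, adjusted p = 0.151), and after centring it fell by 0.22 ± 0.043 (adjusted p = 0.0272). lem-3 differed by −0.27 ± 0.10 (adjusted p = 0.246).

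Of 9 genes of the SUMO pathway, a protein modifier whose cycle is linked to the pore, 0 passed at 48 h or at 4 h on the deposited scale. Of all genes 7.34% rose and 2.71% fell at 48 h, and 0.384% were called at 4 h. The smallest p at 48 h belonged to the activating enzyme gene uba-2 (0.52 ± 0.23, limma adjusted p = 0.165) and the protease gene ulp-1 (0.45 ± 0.20, adjusted p = 0.169). At 4 h it belonged to the protease genes ulp-5 (−0.29 ± 0.087, adjusted p = 0.190) and ulp-4 (−0.22 ± 0.093, adjusted p = 0.290). After centring 1 of the 9 fell at 48 h (ulp-5), against 549 of 7684 genes. After length correction 2 of the 9 fell at 48 h (ulp-4 and ulp-5), against 11.3% of all genes. As a check of the treatment, lst-1 and sygl-1 fell at 48 h, where they differed from control by −1.54 ± 0.26 and −2.17 ± 0.37 (limma, adjusted p = 0.00610 and 0.00696). At 2 h their differences from control were −1.46 ± 0.31 and −2.30 ± 0.45, and neither passed on the deposited scale (adjusted p = 0.520 and 0.404). After centring lst-1 passed at 2 h (adjusted p = 0.0282) and sygl-1 did not (adjusted p = 0.0827).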

How the data were processed

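Ribosomal RNA was depleted before sequencing, per the labels. In the deposited tables each gene has a signal that the authors call CPM. The submitters' processing notes list STAR 2.0.4b, featureCounts 1.4.5 of Subread, limma and edgeR. No source used here names the build, annotation release, strand setting or handling of multiply mapped reads. Repeated lines of 279 genes were kept once, leaving 46536 genes. Within 0.1 read, 100% of nonzero values equalled a whole number of reads, so whole reads were recovered from the deposited signal, with totals of 17760706 to 33888940 per library. A count of 0 allows up to 3 reads, or 0.0885 to 0.169 CPM, for counting error only.

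Each table was fitted over all genes with at least 2 libraries at 1 CPM, with limma 3.58.1 in R 4.3.3 (mean-variance trend) on log2(CPM + 1), which understates changes of low genes. Alternatives were pseudocounts of 0.5 and 0.1, no filter or 5 CPM, 2 groups only, median centring over genes of at least 10 CPM, scaling to protein-coding reads, removal of each library's length trend, a replicate block, edgeR 4.0.16 and DESeq2 1.42.0 on recovered reads, and libraries left out. On recovered reads edgeR called 0, 888, 379 and 233 of all genes at 2 h against control, 48 h against control, 48 h against 2 h and 4 h against 2 h. The scripts were tested on simulated data.

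Positions and lengths were looked up by gene ID in the Ensembl annotation of WBcel235, which held 46363 of them. Replicate numbers were not taken to pair libraries. The p-values reflect spread between libraries, and separate cultures are not stated for them. The 39 genes, their roles and the lists were chosen with earlier results of these data known. Genes given in full are, for each comparison, those past the threshold or else the 3 with the smallest p, the highest gene per kilobase of each role in controls, and the 2 genes with the smallest p of each other list at 48 h and 4 h; other genes were named after their values were seen. Gene sequences were not used here.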

Additional observations from a re-analysis of the deposited data

Results flagged for a closer look

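In 19 of 117 groups of 4 libraries (39 genes in the control, 48 h and 4 h groups), a single library lay far from the other 3 by Dixon's criterion, which chance meets in about 1 in 20 groups. In 18 of them it was 48 h library 1, as the lowest value, so the 18 are not independent. That library had the highest ribosomal share at 48 h, 44.9%, and its part in these values was not tested.

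Among carrier genes the 48 h library 1 values were 284 CPM in ima-2, 139 CPM in imb-2, 457 CPM in imb-3, 243 CPM in xpo-1 and 124 CPM in xpo-2. Among ring and channel genes they were 47.2 CPM in npp-4, 266 CPM in npp-6, 161 CPM in npp-8, 78.2 CPM in npp-11, 139 CPM in npp-13 and 69.8 CPM in npp-19. At the cytoplasmic face and the basket they were 374 CPM in npp-9, 173 CPM in npp-14, 174 CPM in npp-7, 99.0 CPM in npp-16 and 397 CPM in npp-21. The 2 genes of lowest level, npp-25 and npp-26, had 6.81 CPM and 2.98 CPM there.

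The remaining case was control 3 in npp-23, the lowest of its group at 46.0 CPM against 55.1 to 56.8 CPM in the other controls.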

How the results depend on the processing

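The count of genes called at 2 h stayed at 0 under all 25 alternatives. At 48 h against control, 0 became 1 with scaling to protein-coding reads or a replicate block (ran-3 both times), 3 with DESeq2, 8 with the length trend removed, 3 without controls 1 and 3 and 48 h library 1, and there 5 with edgeR and 16 with the length trend also removed. At 48 h against 2 h these last 3 settings gave 4, 5 and 12. At 4 h it became 2 with centring, scaling to protein-coding reads, length removal or edgeR. It became 3 with DESeq2, with a replicate block, and without 4 h libraries 1 and 2, with or without length removal. At 4 h the block drew its fold changes from libraries 3 and 4 alone, like leaving out 4 h libraries 1 and 2. Those settings thus gave the same fold changes and are not separate alternatives. Leaving out 1 library gave 0 to 3 there. The block called 0 genes at 2 h against control and at 48 h against 2 h. Same-numbered libraries correlated at 0.688, 0.425, −0.42 and 0.581 (control and 48 h), at 0.377 and 0.464 (control and 2 h), at 0.488 and 0.193 (2 h and 48 h), and at 0.169 and 0.0249 (2 h and 4 h). With control 3 and 48 h library 3 below 0, numbers were not taken as pairs.

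The median at 2 h, 0.37, became −0.050 with the length trend removed, −0.090 without controls 1 and 3 with or without 48 h library 1, and without all 3 −0.059 with length removal and −0.096 with edgeR. At 4 h the median, −0.13, became −0.052 with centring, −0.032 with length removal, −0.057 with edgeR or DESeq2, −0.040 with a replicate block or without 4 h libraries 1 and 2, and −0.0097 when these were left out with length removal. Leaving out 1 library gave medians of 0.20 to 0.53 at 2 h and 0.15 to 0.45 at 48 h against control, −0.16 to 0.051 at 48 h against 2 h, and −0.17 to −0.083 at 4 h. Among genes named by the rule, 4 turned sign in 11 cases. The 9 importin and exportin genes turned from positive to negative at 48 h with centring alone, and were also negative with length removal. At 2 h ima-1 became −0.076 with centring, −0.026 with scaling to protein-coding reads, −0.12 with length removal, −0.071 with edgeR and −0.065 with DESeq2. npp-20 became −0.0040 with centring, and npp-26 −0.015 with centring and −0.018 with length removal. At 48 h npp-23 became −0.014 with centring, −0.0073 with edgeR and −0.0043 with DESeq2. The cause was not tested. A fit of 2 groups only was not run at 4 h, since that table holds 2 groups. The 2 libraries at 2 h in each table limit what can be seen there.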

Other observations

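Some of the 39 genes are neighbours in the annotation of WBcel235. The outer ring gene npp-15 and the Ran GTPase-activating protein gene ran-2 lie on chromosome III. Both are on the plus strand, with 479 bases between them. Only a piRNA gene, 21ur-11860, starts between the start positions of the pair, a stretch that includes npp-15 itself. Control levels of npp-15 and ran-2 were 53.0 and 35.4 CPM per kilobase. The carrier genes imb-3 and xpo-2 lie on chromosome I, both on the minus strand, with 3559 bases between them and no gene of the tables starting there. Their control levels were 216 and 62.5 CPM per kilobase.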
